A study of Mus musculus with 6 samples.

Results

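The genes described here are the HOX genes and other homeobox genes that pattern the embryo, measured in mouse embryonic stem (ES) cells with and without an siRNA against BRG1. They were taken by gene name from the array annotation: the HOX clusters A to D, the Pax, Lhx, Nkx, Dlx, Irx, Msx, Emx, En, Gbx, Meis and Pbx families, Six4 and its family, and Otx1, Isl1, Isl2, Meox1 and Meox2, with every non-control probe. This gave 102 genes of the 27962 gene names on the array, represented by 147 of 41174 probes and 246 of 43379 non-control spots. HOX genes were 38 of the 102 and the other families 64.

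The study profiled total RNA on 6 single-colour Agilent arrays, 3 from cells given a scrambled control siRNA and 3 from cells given an siRNA against BRG1, each after 48 h. All cells were ES cells grown in culture, with a genetic background labelled F1 from 129 and C57BL/6, and both groups therefore carried an siRNA. From each sample 500 ng of RNA was labelled with Cy3. The labels do not say whether the 3 replicates of a group were separate cultures, and the p-values below therefore measure only how much these arrays differ among themselves, a spread that may be technical.

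Homeobox genes encode transcription factors that bind DNA through a homeodomain. HOX genes lie in clusters and give cells their position along the body axis, the TALE proteins Meis and Pbx bind DNA together with HOX proteins, and the other families specify head regions, neurons, muscle, gut and other tissues. In ES cells most of these genes are kept at low levels and their promoters are known to carry Polycomb repression; BRG1, encoded by Smarca4, is the ATPase of the SWI/SNF (BAF) chromatin remodelling complexes.

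The software's own test for a signal well above background was passed by 60.89 to 75.33% of the non-control spots of an array. All 3 control arrays and BRG1 siRNA replicate 1 were on 1 slide, and BRG1 siRNA replicates 2 and 3 were on another. All 16 ES cell markers on the list used were well above background on every array. In what follows a level is the log2 processed signal minus the 75th percentile of that array, a change is BRG1 siRNA minus control siRNA on that scale with its standard error (SE), and p-values come from limma with Benjamini-Hochberg adjustment over the 17758 genes tested, with a threshold of 0.05. To be tested, a gene's brightest probe had to be well above background throughout the control arrays, the BRG1 siRNA arrays or both.

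Smarca4 itself had levels of 4.32, 4.36 and 4.23 on control replicates 1 to 3 and of 3.76, 3.74 and 3.60 on BRG1 siRNA replicates 1 to 3. The groups did not overlap. The change was -0.60 (SE 0.06), or 65.8% of control, with a limma adjusted p of 0.00365, and all 3 Smarca4 probes fell.

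Fewer than 1 in 2 of the homeobox genes were well above background on all 6 arrays: 50 of 102, against 17 on no array and 35 on some. Among the genes on no array were Hoxa5, Hoxb1, Hoxb5, Hoxc8, Hoxc12, Hoxd1, Hoxd4, Hoxd8, Hoxd9, Dlx3, En1, Irx3, Irx5, Lhx8, Six2 and Six6. Another 22 were above background on 1 to 4 arrays but on all arrays of neither group, so 63 genes were tested (61.8%, against 63.5% of all gene names) and 39 were not. The number of these genes above background was 80, 64 and 75 on control replicates 1 to 3 and 66, 52 and 77 on BRG1 siRNA replicates 1 to 3. The groups overlapped, and BRG1 siRNA replicate 2 had the fewest.

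Of the HOX genes 18 of 38 were tested (47.4%), and of the other homeobox genes 45 of 64 (70.3%). Within the HOX genes the count of tested genes was 6 of 11 in cluster A on chromosome 6, 7 of 10 in cluster B on chromosome 11, 4 of 8 in cluster C on chromosome 15 and 1 of 9, Hoxd13, in cluster D on chromosome 2. By paralogue group, a number that runs from the anterior to the posterior end of a cluster, 7 of 12 HOX genes of groups 1 to 4 were tested, 5 of 11 of groups 5 to 8 and 6 of 15 of groups 9 to 13. These shares are descriptions and were not tested against each other. All 5 Meis and Pbx genes and 10 of 11 Nkx genes were tested, against 4 of 9 Pax genes and 4 of 6 Irx genes.

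**Figure D1:**
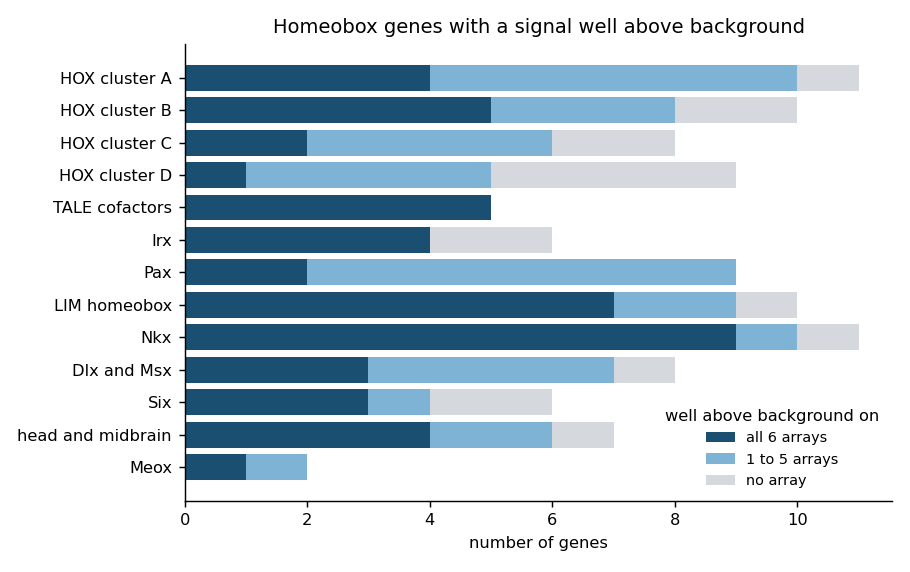
Number of homeobox genes per family (horizontal axis, genes) whose brightest probe was well above background on all 6 arrays (dark), on 1 to 5 arrays (light) or on no array (grey). All 5 Meis and Pbx genes were above background on all 6 arrays, and in HOX cluster D 1 of 9 was.

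The detected homeobox genes were dim and noisy by the standard of these arrays. Of the 63 tested, 79.4% were above background on all 6 arrays, against 92.9% of all genes tested, and their median SE was 0.13 against 0.07. For 13 of them the signal was above background on all controls but not on all BRG1 siRNA arrays (Hoxa4, Hoxa13, Hoxb2, Hoxb3, Hoxc5, Hoxc10, Pax1, Pax7, Lhx3, Nkx2-2, Dlx5, Msx3 and Otx1), and for 0 the reverse. These 13 entered the test through the controls alone, where they were high, so their lower values with BRG1 siRNA are partly set by that entry and are not counted as support for a fall. None of the 13 passed the threshold.

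Of the 63 tested genes 12 passed the threshold (19.0%), where 23.3% of all genes tested did. With BRG1 siRNA 5 rose (among them Six4, Nkx6-3, Nkx2-9 and Lhx6), against a background of 9.87% of all genes, and 7 fell (Nkx6-2, Emx1, Hoxb7, Isl2, Irx1, Irx2 and Pbx3), against 13.4%. In this fit the share of homeobox genes called was thus near that of all genes. At an unadjusted p under 0.05, 10 were higher and 11 lower, or 21 of 63, against 37.9% of all genes. The median change of the 63 genes was -0.07, and that of all genes tested was -0.04. Of the 63, 21 were positive (33.3%, against 42.9% of all genes tested) and 42 negative. The negative ones include all 13 genes tested through the controls alone, so this split is partly set by their entry. With only genes above background on all 6 arrays, the median was -0.036 for 50 homeobox genes and -0.024 for all genes. The groups of arrays did not overlap for 20 of the 63 (31.7%), against 44.0% of all genes. With the slide as a block, 5 of the 63 passed (among them Nkx6-2, Six4, Nkx6-3 and Irx1), against 7.84% of all genes, and between the controls and the only BRG1 siRNA array on their slide none did. With scaling on the spike-in probes 13 homeobox genes rose and 5 fell, where 22.5% of all genes passed and their median was 0.16. With median scaling 7 homeobox genes rose and 6 fell, where 9.76% of all genes passed.

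**Figure D2:**
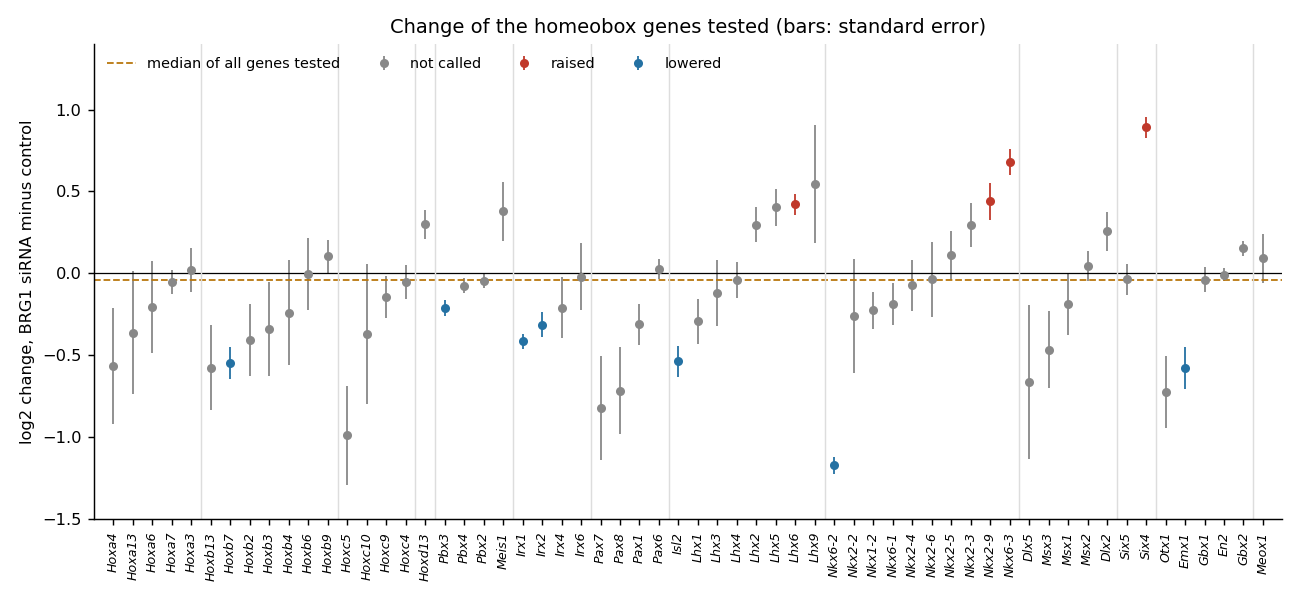
Log2 change (vertical axis, BRG1 siRNA minus control siRNA) of 60 of the 63 tested homeobox genes, grouped by family and ordered within it, with the SE as a bar; red genes rose, blue fell and grey did not pass the threshold. The dashed line is the median of all genes tested, at -0.04, and the HOX genes, at the left of the plot, have Hoxb7 as their only coloured point.

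Genes listed as markers of other cell types were also read, and which cells expressed them was not measured. The summed linear signal of 26 fibroblast genes, relative to the 75th percentile, was 76.69 to 79.92 on the controls and 61.38 to 62.57 with BRG1 siRNA, with 22 to 24 of them above background on each array. That of 13 mesoderm genes was 2.676 to 3.097 against 1.68 to 1.791, and that of 16 neural genes 17.4 to 17.8 against 17.1 to 17.6. For 12 endoderm genes it was 0.99 to 1.26 against 0.95 to 1.04. Of the tested genes 2 of 23 fibroblast genes rose and 11 fell, and 2 of 11 mesoderm genes rose and 4 fell. In the neural list 0 of 11 rose and 1 fell, and in the endoderm list 0 of 8 rose and 2 fell. Among all genes tested 9.87% rose and 13.4% fell. Whether cells of these types had a part in the changes of homeobox genes was not tested. In these bulk samples fewer cells of a type and less RNA per cell cannot be told apart.

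The largest change was in Nkx6-2 (accession NM_183248, chromosome 7), a repressor that patterns the ventral neural tube and acts in oligodendrocytes. Its level was 3.30, 3.20 and 3.18 on control replicates 1 to 3 and 1.99, 2.09 and 2.09 on BRG1 siRNA replicates 1 to 3. All controls lay above all BRG1 siRNA arrays, and the spread within each group was small beside the gap. The change was -1.17 (SE 0.05), 2.25-fold lower, with a limma adjusted p of 0.000803. With the slide as a block it was -1.24.

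A second Nkx6 gene moved the other way. Nkx6-3, known from the stomach, had levels of -0.69, -0.85 and -0.89 on the controls and of -0.24, -0.13 and -0.02 on the BRG1 siRNA arrays. It rose by 0.68 (SE 0.08, limma adjusted p = 0.0048). Nkx6-1, which acts in pancreatic beta cells and motor neuron progenitors, had a change of -0.19 (95% interval -0.51 to 0.13). So of the 3 Nkx6 genes, which share a name and a closely related homeodomain, 1 fell, 1 rose and 1 did not pass the threshold.

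Six4 (NM_011382, chromosome 12), whose product acts with Eya coactivators in muscle, kidney and sensory placodes, had the largest rise. Its levels were -2.56, -2.49 and -2.56 on the controls and -1.53, -1.66 and -1.73 on the BRG1 siRNA arrays. Every BRG1 siRNA array was above every control. The change was 0.89 (SE 0.06), with a limma adjusted p of 0.00157, or 1.86-fold. Six5, a relative, was tested and had a change of -0.04 (95% interval -0.27 to 0.19), and Six2 and Six6 were above background on no array.

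The promoters of the gene that fell most and of the gene that rose most both held more CpG pairs than the median of all listed promoters. The 250 bases before the start are shown for Nkx6-2 and for the outer of the starts listed for Six4, from RefSeq on GRCm38.p6, 5′ to 3′ along the gene, with CpG pairs in capitals.
Nkx6-2, minus strand, chr7:139582798-139583047: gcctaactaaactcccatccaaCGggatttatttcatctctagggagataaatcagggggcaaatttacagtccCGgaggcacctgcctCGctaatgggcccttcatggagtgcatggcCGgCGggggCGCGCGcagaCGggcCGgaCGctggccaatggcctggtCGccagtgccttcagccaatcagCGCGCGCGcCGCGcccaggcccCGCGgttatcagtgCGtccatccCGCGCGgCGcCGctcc
Six4, minus strand, chr12:73113426-73113675: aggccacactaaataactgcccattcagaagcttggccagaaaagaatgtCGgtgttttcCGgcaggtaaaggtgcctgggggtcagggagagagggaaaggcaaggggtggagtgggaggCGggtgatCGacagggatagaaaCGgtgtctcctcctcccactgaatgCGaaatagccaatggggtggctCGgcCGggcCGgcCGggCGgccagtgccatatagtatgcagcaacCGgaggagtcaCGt
Nkx6-2 had 26 CpG pairs in this window and Six4 had 13. The medians below take the first listed start of each gene, which for Six4 is the one not shown and had 15. A promoter was listed for 67 of the 102 homeobox genes, with a median of 14 CpG pairs, against 6 over the 27025 genes with a listed promoter. The median was 14 in the 3 risen genes with an entry and 22.5 in the 4 fallen ones, and 16 in the tested against 12 in the untested genes. The homeodomain core TAATTA, which reads the same on both strands, was in 2.99% of the homeobox promoters and in 4.9% of all promoters, and TATAAA on either strand in 8.96% and 13%. A match of these letters is a description and not a binding site, and no promoter activity was measured here.

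The other gains were smaller. Lhx6, a LIM homeobox gene of cortical interneurons, had levels of -1.68, -1.77 and -1.89 on the controls and of -1.34, -1.39 and -1.34 on the BRG1 siRNA arrays. It rose by 0.42 (SE 0.06, limma adjusted p = 0.00892), and with the slide as a block the change was 0.44 with an adjusted p of 0.0655. A second Lhx6 probe, with a change of -1.23 (SE 0.61, limma adjusted p = 0.214 over all probes), did not pass, so the 2 probes differed in sign.

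Nkx2-9, a gene of the ventral neural tube, had levels of -0.64, -1.07 and -0.90 on the controls and of -0.39, -0.45 and -0.45 on the BRG1 siRNA arrays. The groups did not overlap, but the controls were spread more widely than the BRG1 siRNA arrays. Its change of 0.44 (SE 0.11, limma adjusted p = 0.0414) lost the call without any 1 of control replicates 2 and 3 and BRG1 siRNA replicates 1, 2 and 3 (adjusted p 0.0758 to 0.132).

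**Figure D3:**
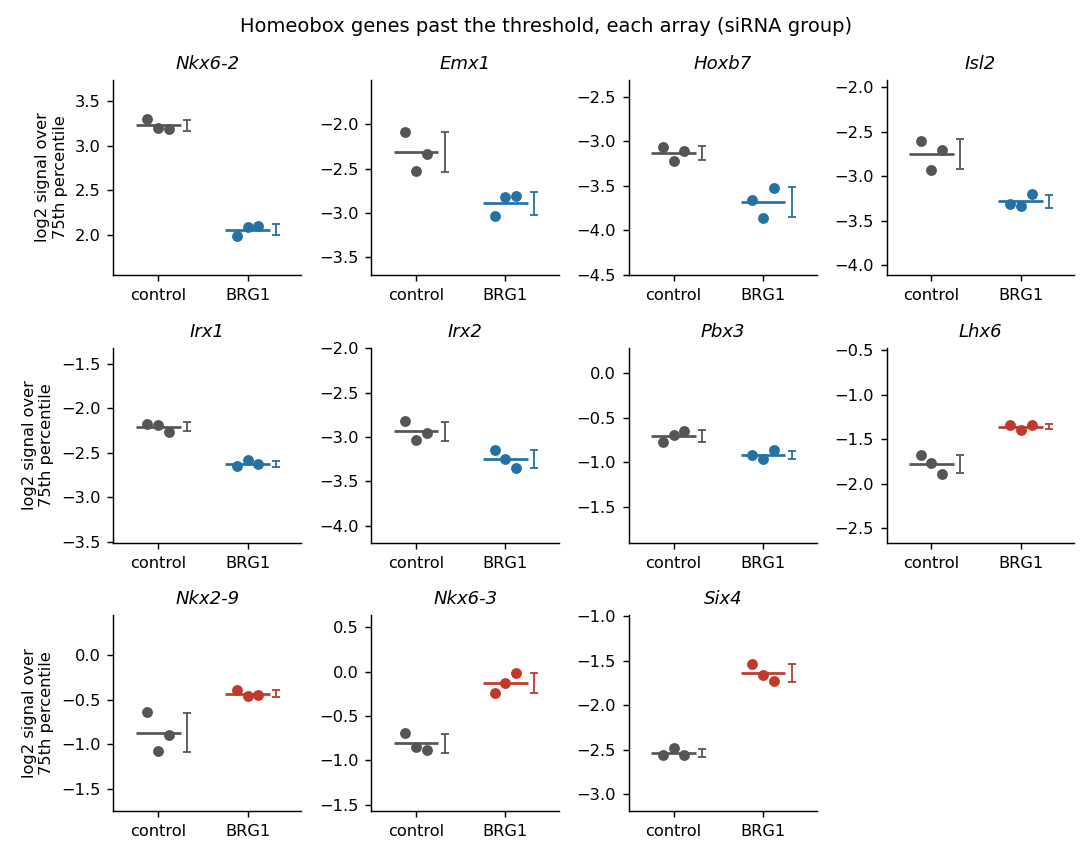
Level on each array (points; log2 signal over the array's 75th percentile) of 11 of the 12 homeobox genes past the threshold, with the group mean as a line and the SD as a bar beside it; controls are grey, and BRG1 siRNA arrays red where the gene rose and blue where it fell. Every panel spans the same height of the log2 scale, and in none do the 2 groups overlap.

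Among the genes that fell were the Iroquois genes Irx1 and Irx2, neighbours on chromosome 13 that act in lung, heart and neural patterning. Irx1 had levels of -2.17, -2.19 and -2.26 on the controls and of -2.65, -2.58 and -2.63 on the BRG1 siRNA arrays. It fell by 0.42 (SE 0.05, limma adjusted p = 0.0039) and kept the call with the slide as a block. With scaling on the spike-in probes its limma adjusted p was 0.108, with median scaling 0.0565 and with the mean over probes 0.325. A second Irx1 probe was above background on no array and was not tested. Irx2 fell by 0.31 (SE 0.08, limma adjusted p = 0.0404), from -2.82, -3.03 and -2.96 to -3.15, -3.25 and -3.35.

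The Irx2 call was lost without any 1 of the 6 arrays (adjusted p 0.0548 to 0.120). Its 2 other probes had changes of -0.15 and -0.24 and did not pass. Irx4, on the same stretch of chromosome 13, had a change of -0.21 (95% interval -0.68 to 0.26), and Irx6 on chromosome 8 of -0.02 (-0.53 to 0.49). Irx3 and Irx5, its neighbours on chromosome 8, were above background on no array.

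Isl2, a LIM homeobox gene of motor neurons, had levels of -2.60, -2.93 and -2.70 on the controls and of -3.31, -3.33 and -3.20 on the BRG1 siRNA arrays. It fell by 0.54 (SE 0.09, limma adjusted p = 0.0144). It no longer passed when control replicate 3, BRG1 siRNA replicate 1 or BRG1 siRNA replicate 2 was left out (adjusted p 0.0549 to 0.0661). Its relative Isl1 was above background on 2 controls and 1 BRG1 siRNA array and was not tested.

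Emx1, a gene of the dorsal forebrain, had levels of -2.08, -2.52 and -2.33 on the controls and of -3.04, -2.81 and -2.81 on the BRG1 siRNA arrays. It fell by 0.58 (SE 0.13, limma adjusted p = 0.0287), a call that ended when control replicate 1 or 3, or BRG1 siRNA replicate 1 or 2, was left out (adjusted p 0.0521 to 0.0961). Of the other head and midbrain genes Otx1, which acts in the forebrain, had a change of -0.72 (SE 0.22, adjusted p = 0.0675), with groups that did not overlap but 1 BRG1 siRNA array above background. Gbx2, a gene of the anterior hindbrain that ES cells also express, had levels of 2.20, 2.20 and 2.23 on the controls and of 2.32, 2.34 and 2.43 on the BRG1 siRNA arrays. Its change of 0.15 (SE 0.04, limma adjusted p = 0.0592) did not pass although its groups did not overlap. En2, a gene of the midbrain and hindbrain border, had a change of -0.01 (95% interval -0.11 to 0.09).

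Of the TALE cofactors, Pbx3 fell by 0.21 (SE 0.05, limma adjusted p = 0.036), from -0.77, -0.70 and -0.65 to -0.92, -0.96 and -0.87. That call ended when control replicate 2 or 3, or BRG1 siRNA replicate 1 or 2, was left out (adjusted p 0.0981 to 0.131), and with scaling on the spike-in probes the change was -0.01. Pbx2 and Pbx4 had changes of -0.05 (95% interval -0.16 to 0.06) and -0.08 (-0.19 to 0.04). Meis1, which binds DNA with Pbx and HOX proteins, had a change of 0.38 (95% interval -0.07 to 0.82, limma adjusted p = 0.186). A second tested Meis1 probe had a change of -0.11 (SE 0.28), so the Meis1 probes differed in sign. In ES cells of both groups the HOX partners of the Pbx family were thus detected on every array, and the intervals of Pbx2 and Pbx4 held 0.

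Of the 18 HOX genes tested 1 passed the threshold (5.56%, against 23.3% of all genes): Hoxb7, a trunk gene of cluster B, fell. Its levels were -3.07, -3.22 and -3.11 on the controls and -3.66, -3.86 and -3.52 on the BRG1 siRNA arrays. The groups did not overlap, and the change was -0.55 (SE 0.10, limma adjusted p = 0.0146). Leaving out control replicate 3 or BRG1 siRNA replicate 1 ended the call (adjusted p 0.0658 and 0.0513). Its neighbours Hoxb6, whose probe lies 9.1 kb away, and Hoxb9, 14.1 kb away on the other side, had changes of -0.0034 (95% interval -0.55 to 0.54) and 0.10 (-0.14 to 0.35). A second Hoxb9 probe had a change of -0.49 (95% interval -1.04 to 0.06), with groups that did not overlap, so the Hoxb9 probes differed in sign. Hoxb8, 7.3 kb from Hoxb7 and next to Hoxb9, was not tested, with a signal above background on 2 controls and no BRG1 siRNA array.

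In limma 0 HOX genes rose, and at an unadjusted p under 0.05 there were 2 higher, Hoxd13 among them, and 2 lower, Hoxb7 and Hoxc5. Hoxd13, which patterns the digits, had levels of -3.12, -3.29 and -3.33 against -2.94, -3.08 and -2.83, without overlap, and a change of 0.30 (SE 0.09, limma adjusted p = 0.0635). It passed with quantile normalization (limma adjusted p 0.0155), with median or spike-in scaling and with a different background correction. It did not pass with the mean over probes (limma adjusted p 0.555), the replicate block (0.114) or no filter on dim probes (0.163). A second Hoxd13 probe was above background on 1 control and 1 BRG1 siRNA array and was not tested.

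Hoxc5 had the largest difference of the HOX genes, with levels of -3.48, -4.44 and -4.12 on the controls and of -4.82, -5.45 and -4.73 on the BRG1 siRNA arrays. The change was -0.99 (SE 0.30, limma adjusted p = 0.0683), with 2 of 3 BRG1 siRNA arrays above background. It is one of the 13 genes that were tested through the controls alone. Hoxa4, the tested gene of cluster A with the largest difference, had -3.97, -5.05 and -4.63 on the controls and -5.39, -5.41 and -4.55 on the BRG1 siRNA arrays. Its groups overlapped (change -0.56, SE 0.36, limma adjusted p = 0.302).

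The median change of the 18 HOX genes was -0.22, with 14 below 0, but 6 of the 18 were tested only because all controls were above background. Some HOX genes were measured closely at changes near 0: Hoxa7 had -0.05 (95% interval -0.24 to 0.13) and Hoxc4 -0.05 (-0.31 to 0.20). Others, such as Hoxc10, with -0.37 (-1.43 to 0.69), Hoxa13, with -0.36 (-1.30 to 0.57), and Hoxb4, with -0.24 (-1.03 to 0.55), were variable, and their intervals held both rises and falls.

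The 20 HOX genes that were not tested were above background on 0 to 4 arrays. Hoxd10, which acts in the limb and lumbar cord, was above background on no control and on 2 BRG1 siRNA arrays, with levels of -5.52, -5.74 and -5.32 and of -5.13, -4.94 and -4.19. Hoxa10 had -5.05, -5.53 and -5.47 on the controls, with 1 above background, and -4.76, -4.73 and -4.44 with BRG1 siRNA, with 2 above background. Hoxc12, above background on no array, had -6.28, -6.75 and -6.86 against -7.52, -6.91 and -7.10. These were the 3 untested HOX genes whose groups did not overlap, and they were picked out for that after their values were seen. The share without overlap among all untested genes was not computed, so this count is not read as a result. With no filter on dim probes, none of the 39 untested homeobox genes passed the threshold.

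The Pax, Dlx, Msx and Meox genes gave no call. Of the Pax genes Pax6, which drives eye and neural development, had the narrowest interval, with levels of -1.30, -1.38 and -1.42 on the controls, -1.31, -1.27 and -1.43 on the BRG1 siRNA arrays and a change of 0.03 (95% interval -0.13 to 0.18). Pax7, a gene of neural crest and muscle stem cells, had the largest difference, -0.82 (SE 0.32, limma adjusted p = 0.12), with 1 BRG1 siRNA array above background. Pax8, of thyroid and kidney, had -0.72 (SE 0.27, limma adjusted p = 0.108), and its groups did not overlap. With the slide as a block this order turned, with -0.24 for Pax7 and -1.23 for Pax8.

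Dlx5, a gene of the branchial arches and bone, had levels of -3.62, -4.75 and -4.22 against -5.65, -4.86 and -4.07, with overlapping groups (change -0.66, SE 0.47, limma adjusted p = 0.357). The Dlx5 change was -0.27 without BRG1 siRNA replicate 1, -1.05 without BRG1 siRNA replicate 3, -0.37 without control replicate 1 and -1.45 with the slide as a block. Msx1 and Msx2, which act in skull, tooth and limb, had changes of -0.19 (95% interval -0.66 to 0.28) and 0.05 (-0.18 to 0.27). Meox1, a somite gene, had a change of 0.09 (SE 0.15, limma adjusted p = 0.699), which was -0.20 with the slide as a block.

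Of the remaining LIM homeobox genes Lhx5, a forebrain gene, had the lowest p. Its levels were -3.02, -3.44 and -3.36 on the controls and -2.87, -2.88 and -2.85 on the BRG1 siRNA arrays, with no overlap and a change of 0.40 (SE 0.11, limma adjusted p = 0.0536). Lhx2, of forebrain and eye, had 0.30 (SE 0.11, adjusted p = 0.1), while Lhx1, Lhx3 and Lhx4 had changes between -0.29 and -0.04 and Lhx9 had 0.55 with a wide interval (-0.34 to 1.44). Of the remaining Nkx genes the changes lay between -0.26 in Nkx2-2, of ventral neural tube and pancreas, and 0.29 in Nkx2-3, of spleen and gut, and Nkx2-5, of the heart, had 0.11 (95% interval -0.26 to 0.48).

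More than 1 probe was present for 39 of the 102 genes, and 14 genes had 2 or 3 tested probes. At the probe level 80 of the 147 homeobox probes were tested and 14 passed, 7 in each direction, with a background of 19.6% over all probes. Irx2 and Lhx6 were the genes of which 1 tested probe passed and another tested probe did not, and no gene had probes called in opposite directions. In Irx2 all 3 changes were negative. For each of these genes 2 probes are shown as the first 30 bases, in lower case with nothing marked. The calls of both genes rest on the probe printed first, and the Irx2 probe with a change of -0.15 is not shown.
Irx2 probe at chr13:69564443-69564502: tatgagaacttgttgtcatagtatagcttc
Irx2 probe at chr13:69562330-69562389: cggggatgccttgtgcgaatcaggctcaga
Lhx6 probe at chr2:36089290-36089349: catacctttcatgttgtgctttgtaaatgt
Lhx6 probe at chr2:36090997-36091054: atcacagcagcaatggctaattcagcttga
Coordinates are those of the array files in mm7, on the plus strand for Irx2 and the minus strand for Lhx6. The second Lhx6 probe had levels of -3.91, -2.67 and -5.02 on the controls and of -5.08, -5.59 and -4.61 on the BRG1 siRNA arrays, with overlapping groups.

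**Figure D4:**
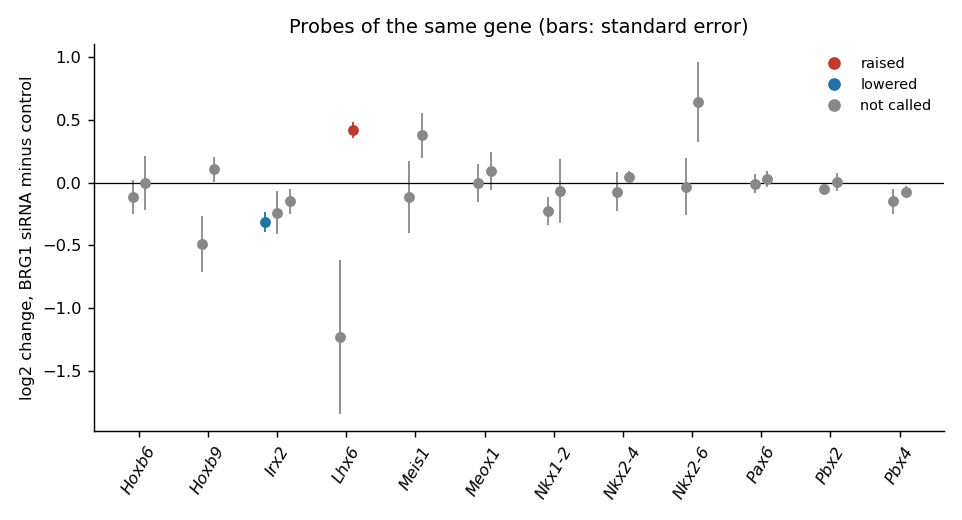
Log2 change with its SE of every tested probe of 12 of the 14 homeobox genes with 2 or more tested probes (vertical axis, BRG1 siRNA minus control siRNA); red probes rose, blue fell and grey did not pass. The 3 Irx2 probes lie below 0, and the 2 Lhx6 probes lie on opposite sides of 0.

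The slides split the BRG1 siRNA arrays, so each change was also read with the slide as a block, where it rests on BRG1 siRNA replicate 1 against the controls of its slide. Six4 and Nkx6-3 rose by 1.00 and 0.57 in that fit (limma adjusted p 0.0187 and 0.0475), and Nkx6-2 and Irx1 fell by 1.24 and 0.45. The other 7 genes kept their direction and lost the call. On that slide alone none passed, with an adjusted p of 0.0509 for Nkx6-2 and Six4.

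**Figure D5:**
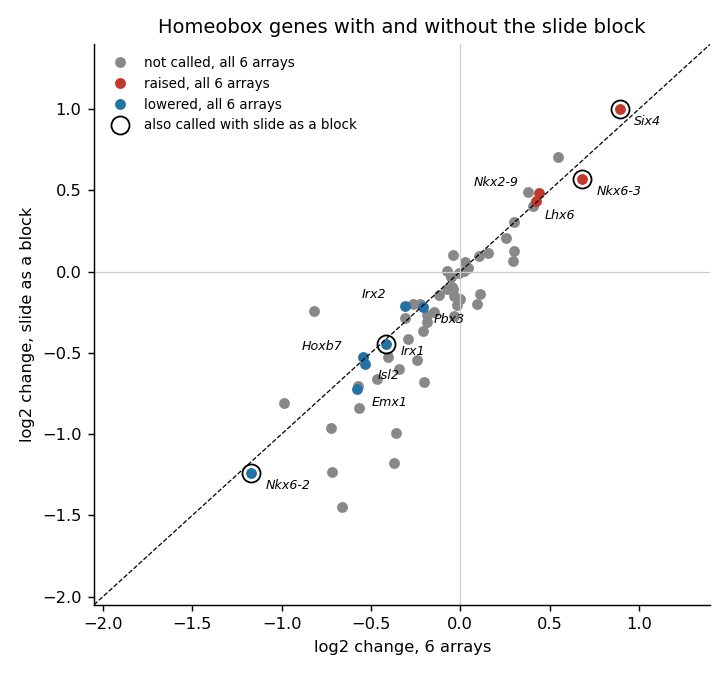
Log2 change of 60 of the 63 tested homeobox genes over the 6 arrays (horizontal axis) against the change with the slide as a block (vertical axis); points are coloured by the call over 6 arrays, circled where the call held with the block, and the dashed line marks equal values. Nkx6-2, Six4, Nkx6-3 and Irx1 are circled.

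Homeobox genes outside the families above were read from a list of 61, of which 43 were tested: 2 rose and 10 fell (27.9%, against 23.3% of all genes), with a median of -0.20. The falls were led by Rhox6, an X-linked gene of placenta and germ cells, with a change of -1.22 (SE 0.15), and Cdx2, a trophectoderm and posterior gene, with -0.95 (SE 0.06). Cdx1 (-1.15, SE 0.19), also counted among the 10, was above background on all controls and on 1 BRG1 siRNA array. It is 1 of 6 genes of this list that were tested through the controls alone, and its value is not read as support for a fall. The median of the list includes these 6 and the count of falls includes Cdx1, so both are partly set by that entry. Of 5 further TALE genes 1 fell, Mkx, a tendon gene, by 0.38 (SE 0.06).

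The retinoic acid pathway, which controls many HOX genes, had 23 of 23 listed genes tested: 3 rose and 7 fell (43.5%, against 23.3% of all genes). Rxrg, a retinoid X receptor, fell by 0.91 (SE 0.04), Cyp26a1, the enzyme that breaks retinoic acid down, by 0.89 (SE 0.11) and Dhrs3, a retinal reductase, by 0.74 (SE 0.08). With scaling on the spike-in probes 5 rose and 4 fell, where 22.5% of all genes passed.

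Of the Polycomb and trithorax proteins that repress or activate HOX genes 38 of 39 were tested: 12 rose and 4 fell (42.1%, against 23.3% of all genes), with a median of 0.10. Bmi1 and Pcgf2, alternative subunits of Polycomb repressive complex 1, rose by 0.95 (SE 0.05) and 0.41 (SE 0.05), and Yaf2, a subunit of variant complexes, fell by 0.39 (SE 0.04). With the slide as a block 4 rose and 1 fell, where 7.84% of all genes passed. The count was 6 without control replicate 2 or 3, where 10.3% and 9.19% of all genes passed. It was 7 without BRG1 siRNA replicate 1, 8 without BRG1 siRNA replicate 2 and 9 without control replicate 1, where 12.8%, 11.1% and 14.4% of all genes passed.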

How the data were processed

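Total RNA was profiled on 6 Agilent single-colour arrays. Per the file headers, the authors scanned array design 014868 and extracted a linear intensity per spot, already background-subtracted, with version 9.5.3.1 of Agilent's Feature Extraction. From this deposited intensity log2 signal minus each array's 75th percentile of non-control spots was computed. Control and outlier spots were left out, spots of a probe averaged, and the probe with the highest mean signal taken per gene name. A gene was tested with limma 3.58.1 in R 4.3.3 where that probe was well above background on all arrays of a group. The method was tested on simulated data.

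The homeobox genes and the comparison lists were chosen with earlier results of these data known. The text names Smarca4 and the homeobox genes past the threshold, except where a name is withheld. It also names genes whose probes disagreed, the largest change in a family without a call, and up to 3 called genes per list. Other homeobox genes were named after their values were seen. Alternatives covered scaling, background, filters, probe summary, slide, replicate block and leaving out each array. Same-numbered control and BRG1 siRNA arrays did not deviate together (correlations -0.310, 0.105 and -0.0178), and the main fit did not pair them. With 3 arrays per group, deviations from the group mean cannot show whether the numbers pair samples. RefSeq on GRCm38.p6 gave promoters and names (92 of 102 genes matched by accession with the same symbol, 10 by symbol). Some homeobox genes counted here are not reported by name. The number of arrays limits the precision.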

Additional observations from a re-analysis of the deposited data

How the results depend on the processing

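Of the 12 homeobox genes past the threshold, Nkx6-2, Six4 and Nkx6-3 kept their call under 19 of 20 alternatives each, losing it only on slide 1 alone. The count, with the share of all genes that passed in brackets (23.3% as reported), became 19 with quantile normalization (23.9%; 10 risen, 9 fallen), 20 with normexp before that normalization (26.1%), 6 without the filter on dim probes (6.22%), 7 with the mean over probes (14.5%), 5 with the slide as a fixed block (7.84%) and 0 on slide 1 alone (0.319%), where 3 controls face 1 array assumed to vary like them. Leaving out 1 array gave 6 to 13 genes (9.19 to 24.8%), with 6 without control replicate 3 (9.19%) or BRG1 siRNA replicate 1 (12.8%) and 7 without BRG1 siRNA replicate 2 (11.1%). At the probe level the slide block left 6 probes, and leaving out 1 array 8 to 15. With spike-in scaling the members' median was 0.126 and 18 genes passed (22.5%), 13 risen and 5 fallen, against 5 risen and 7 fallen. With median scaling 13 genes passed (9.76%), 7 risen and 6 fallen. Smarca4 changed by -0.54 on slide 1 alone (limma adjusted p = 0.0724).

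Directions turned for Hoxa4 (0.20), Lhx6 (-0.40) and Pbx3 (0.55) with the mean over probes, which adds dim probes, and for Meox1 with the slide block (-0.20), on slide 1 alone (-0.20) and without BRG1 siRNA replicate 3 (-0.0042, the low end of -0.0042 to 0.2354 with 1 array left out). With the replicate block 9 homeobox genes passed, 8 of them among the 12, where 11% of all genes passed. Hoxc5 was added, Emx1, Irx2, Nkx2-9 and Pbx3 were lost, and 10 homeobox probes passed. Control replicate 1 correlated best with BRG1 siRNA replicate 3.

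For the comparison lists, alternatives were chosen after seeing the data. With the slide as a block 7 other homeobox genes and 5 Polycomb and trithorax genes passed (7.84% of all genes). With the replicate block 7 Polycomb and trithorax genes did (11% of all genes). Leaving out 1 array gave 6 to 14 other homeobox genes and 6 to 15 Polycomb and trithorax genes, beside the shares of all genes given above. Of the other TALE genes 2 passed with quantile normalization, 0 with spike-in scaling, 0 with the replicate block and 0 to 2 with 1 array left out. The causes were not tested. Signal over background limits the reading of the 39 untested genes.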
